A study of Mus musculus with 25 samples.

Results

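The regions described are the starts of olfactory receptor genes (Olfr) and of both families of vomeronasal receptor genes (Vmn1r and Vmn2r) in ATAC-seq libraries of developing mouse retina. ATAC-seq cuts accessible DNA with a transposase, so a region with many reads is open chromatin. A member was any run of 50 consecutive windows of 200 bp whose deposited gene name, once its RefSeq identifier was removed, began with Olfr, Vmn1r or Vmn2r, on sequence placed on a chromosome. This gave 1477 regions of 28488, each 10 kb long and centred on the start of a RefSeq transcript. Of these 1127 were Olfr, 219 Vmn1r and 131 Vmn2r starts, with 1444 gene symbols on 19 chromosomes. Chromosome 7 held 411 and chromosome 2 held 291. The members were not all independent: 265 overlapped another member, and 57 were 1 of several starts under the same symbol. The remaining 27006 regions on placed or unplaced sequence belonged to other genes, and 5 receptor runs on unplaced sequence were set aside.

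The cells came from retinas of CD1 mice and were sorted by green fluorescent protein (GFP). The labels call GFP+ cells retinal progenitor cells and GFP- cells post-mitotic retinal cells, and the reporter that carries GFP is not named. ATAC-seq covered GFP+ cells at embryonic day 10 (E10, 1 library, whose label also reads day 11), then E12.5, E14, E16.5 and E18, and postnatal days P0 and P2, with 2 libraries each. RNA-seq covered GFP+ and GFP- cells at E14, E18 and P2, with 2 libraries for each age and sort. No label says whether replicates came from separate animals, so every p-value here reflects the variation among the libraries alone, which may be technical.

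Odorant and vomeronasal receptors are G protein-coupled receptors of sensory neurons in the nose. A mature olfactory sensory neuron transcribes a single receptor allele, while its other receptor genes lie silent in compact heterochromatin, and the choice depends on enhancers bound by Lhx2, Ldb1 and Ebf proteins. Vmn1r receptors signal through the G protein Gnai2 and Vmn2r receptors through Gnao1, and both use the channel Trpc2. These genes sit in large clusters, and most have promoters poor in the dinucleotide CpG.

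RefSeq promoters (GRCm38.p6, 250 bases before to 50 after the start) were matched to 1216 of the 1444 symbols (1221 promoters). RefSeq has 1272 promoters of genes with these names, some of them not among the members. Among those 1272 the median number of CpG was 1, against 8 among promoters of other genes. At least 10 CpG were found in 3 receptor promoters (0.236%), against 45.2% of the others, and the median GC content was 35.7%, against 53.3%. The most CpG, 23, were in a promoter of Vmn2r29, followed by Olfr212 with 13 and Olfr750 with 11, both named after their values were seen. The promoters printed here are those of the open start of Vmn2r29, of its second start 30961 bp away, of Vmn1r25, whose start was open only early, and of Olfr846, the Olfr region nearest to the Olfr median level. All lie on the minus strand and are written 5′ to 3′ with each CpG in capitals.
Vmn2r29, start of NR_003555 (chr7:7278240-7278539): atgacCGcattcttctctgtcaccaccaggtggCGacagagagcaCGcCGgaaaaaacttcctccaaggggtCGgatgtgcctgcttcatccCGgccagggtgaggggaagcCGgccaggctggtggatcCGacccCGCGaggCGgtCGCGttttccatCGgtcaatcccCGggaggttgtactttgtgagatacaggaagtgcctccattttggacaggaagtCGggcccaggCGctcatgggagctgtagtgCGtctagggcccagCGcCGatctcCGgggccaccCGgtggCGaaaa
Vmn2r29, start of NM_001113468 (chr7:7247279-7247578): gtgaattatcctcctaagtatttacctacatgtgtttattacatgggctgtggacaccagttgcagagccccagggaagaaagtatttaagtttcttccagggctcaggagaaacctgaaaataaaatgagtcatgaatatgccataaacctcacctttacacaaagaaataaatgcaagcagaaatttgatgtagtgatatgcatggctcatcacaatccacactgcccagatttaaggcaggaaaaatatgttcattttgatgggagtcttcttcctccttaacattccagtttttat
Vmn1r25 (chr6:57979253-57979552): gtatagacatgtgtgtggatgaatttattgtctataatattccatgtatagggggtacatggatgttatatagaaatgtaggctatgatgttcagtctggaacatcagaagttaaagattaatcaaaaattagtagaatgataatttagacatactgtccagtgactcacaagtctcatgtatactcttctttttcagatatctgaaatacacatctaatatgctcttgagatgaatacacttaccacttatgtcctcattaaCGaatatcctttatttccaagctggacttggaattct
Olfr846 (chr9:19361307-19361606): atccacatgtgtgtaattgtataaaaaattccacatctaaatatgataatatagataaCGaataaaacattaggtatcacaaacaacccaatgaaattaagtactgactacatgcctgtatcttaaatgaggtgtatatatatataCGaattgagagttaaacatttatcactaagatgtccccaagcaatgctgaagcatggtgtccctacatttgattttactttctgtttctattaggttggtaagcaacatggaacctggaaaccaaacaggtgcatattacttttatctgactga
The first sequence holds 23 CpG, the second 0, Vmn1r25 holds 1 and Olfr846 holds 2. The last 50 bases, those after the start, begin with ATG in Vmn1r25 and NM_001113468, and in Olfr846 ATG lies just inside them. Such annotated starts may be start codons, so promoter here means the sequence around the annotated start. Where transcription begins was not tested. Next, 2 short motifs that do not overlap, and the palindromic Ebf motif, were searched on both strands. The core promoter motif TATAAA was found in 39.5% of receptor promoters, against 12.6% of promoters of other genes and 13.6% of all promoters. The homeodomain core TAATTA was found in 16.6%, against 4.84% of the others and 5.29% of all. The Ebf motif was found in 0.393%, against 0.925% of the others and 0.904% of all. A match is only a description of these letters. TATAAA and TAATTA hold only A and T, and receptor promoters had a median GC content of 35.7%, against 53.3% for other genes. The part of base composition in these shares was not tested. Among receptors the level in ATAC-seq over 10 kb moved little with CpG content. The median was 3.78 CPM, a count scaled to the library's total, in 388 regions whose promoter held no CpG. It was 3.96 CPM in 72 regions with 4 or more. At the centre of the region the medians were 0.160 CPM with no CpG, 0.160 with 1, 0.163 with 2 to 3 and 0.191 with 4 or more.

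Libraries held between 11179094 (P0 replicate 2) and 94686369 (E18 replicate 2) counts over all 10 kb regions. A member had a median of 17 counts in P0 replicate 2 and 210 in E18 replicate 2. CPM values here are scaled to the library's own region total. The E10 library and P2 replicate 1 had 0 counts in all 154 regions on unplaced sequence, where the other 11 libraries had 19122 to 166307 counts.

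Receptor regions were closed in these cells by their level over 10 kb. Averaged over the 13 ATAC libraries, the median member had 3.77 CPM per 10 kb, against 28.8 CPM for regions of other genes. Olfr regions had a median of 3.88 CPM, Vmn2r regions 2.80 and Vmn1r regions 2.74. Of the members 1443 (97.7%) lay under the 25th percentile of all regions, and 1 lay above the median of all regions. Regions of Krtap, Defb and Tas2r genes, which encode hair keratin-associated proteins, defensins and bitter taste receptors and are also clustered and used outside the retina, had a median of 4.73 CPM over 132 regions. Regions of ribosomal protein genes (Rpl and Rps, 114 regions), which every cell uses, had 41.8 CPM.

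The profile around the start was nearly flat. Other genes averaged 0.247 CPM per 200 bp window at 4900 bp before the start and 5.23 CPM at 100 bp before it. Olfr regions averaged 0.0807 CPM at 4900 bp before the start, 0.0994 CPM at 500 bp before it and 0.0933 CPM at 500 bp after it, with 0.0716 CPM at 1100 bp before and 0.0729 CPM at 1100 bp after. Vmn1r windows ran from 0.0449 to 0.0573 CPM over the whole 10 kb. Vmn2r windows ran from 0.0472 to 0.0640 CPM once the open start of Vmn2r29 was left out. Krtap, Defb and Tas2r starts reached 0.213 CPM at 100 bp before the start.

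**Figure D1:**
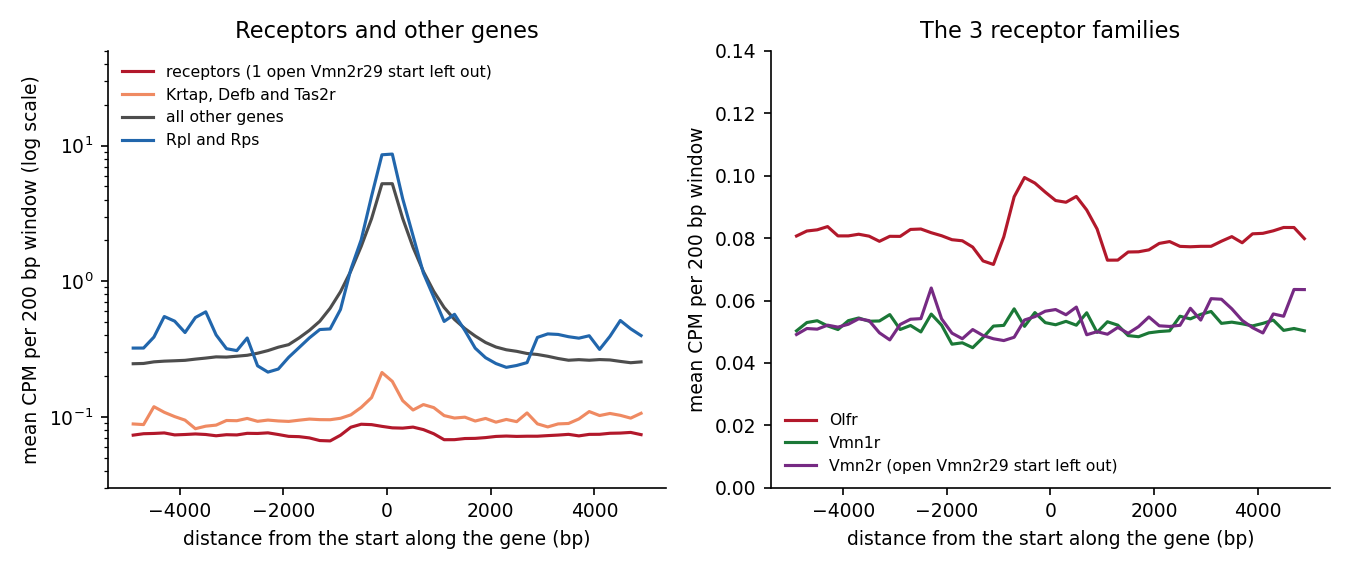
Mean CPM per 200 bp window (averaged over 13 ATAC libraries) against distance from the start in bp. Left, log axis: receptors without the open Vmn2r29 start, Krtap with Defb and Tas2r, all other genes, and Rpl with Rps; right, linear axis from 0: the receptor families. Other genes peak at about 5.23 CPM beside the start, while Olfr regions stay between 0.07 and 0.10 CPM.

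Start enrichment divides the mean count of the central 400 bp by that of the 6 outermost windows, 3 on each side. Over members it lay between 1.15 (P2 replicate 2) and 1.35 (P0 replicate 1), and between 0.998 and 1.24 without the open start of Vmn2r29. Other genes had 6.52 at E10, 12.4 in P2 replicate 2, and 19.0 to 28.8 in the other 11 libraries. Olfr regions ran from 1.01 to 1.27 and Vmn1r regions from 0.790 to 1.32. Vmn2r regions ran from 1.73 to 5.27, and from 0.784 to 1.18 without that start. Krtap, Defb and Tas2r starts ran from 1.35 to 2.91. In every library the receptor value was the lower one beside that of other genes, with no overlap between the sets across libraries. Where an annotated start is a start codon, the central 400 bp may miss the promoter. These ratios therefore describe the annotated starts only.

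The receptor level differed between libraries far more than the level of other genes. The median member had 10.2 CPM at E10, 5.16 and 7.10 CPM at E12.5, 2.45 and 1.92 at E14, 2.03 and 3.17 at E16.5, 2.30 and 2.22 at E18, 1.55 and 1.52 at P0, and 2.12 and 5.88 at P2. The highest library was 6.74-fold over the lowest, whereas the median of other genes moved 1.24-fold, within 26.4 to 32.6 CPM. P0 libraries were the lowest and E10 the highest, and both E12.5 libraries lay above both libraries of every stage from E14 to P0. The P2 libraries differed from each other by more than any other pair: their mean was 4.001 ± 2.65 CPM, against 2.18 ± 0.376 at E14 (SD, n = 2 each). The E12.5 mean was 6.13 ± 1.37 CPM and the P0 mean 1.53 ± 0.0180 CPM.

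Read as the background of each library, members held 1.58% of region counts at E10, 0.778% and 1.06% at E12.5, 0.385% and 0.302% at E14, 0.320% and 0.479% at E16.5, 0.355% and 0.333% at E18, 0.243% and 0.241% at P0, and 0.322% and 0.848% at P2. The 95% Wilson intervals of these shares, for counting error only, were at most 0.0137 percentage points wide. The median member stood at 31.4% of the median other gene at E10 and at 5.59% and 5.70% at P0. The 4 libraries with the highest share, E10, E12.5 replicate 2, P2 replicate 2 and E12.5 replicate 1, were also the 4 with the lowest start enrichment at other genes. The part of either in the other was not tested. Krtap, Defb and Tas2r regions moved by as much, with a median 7.10-fold higher in the highest library than in the lowest, and ribosomal protein regions moved 1.36-fold. The outermost windows of receptor regions moved 6.14-fold and those of other genes 2.28-fold, and receptors stood at 15.6% to 56.0% of the other genes there.

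**Figure D2:**
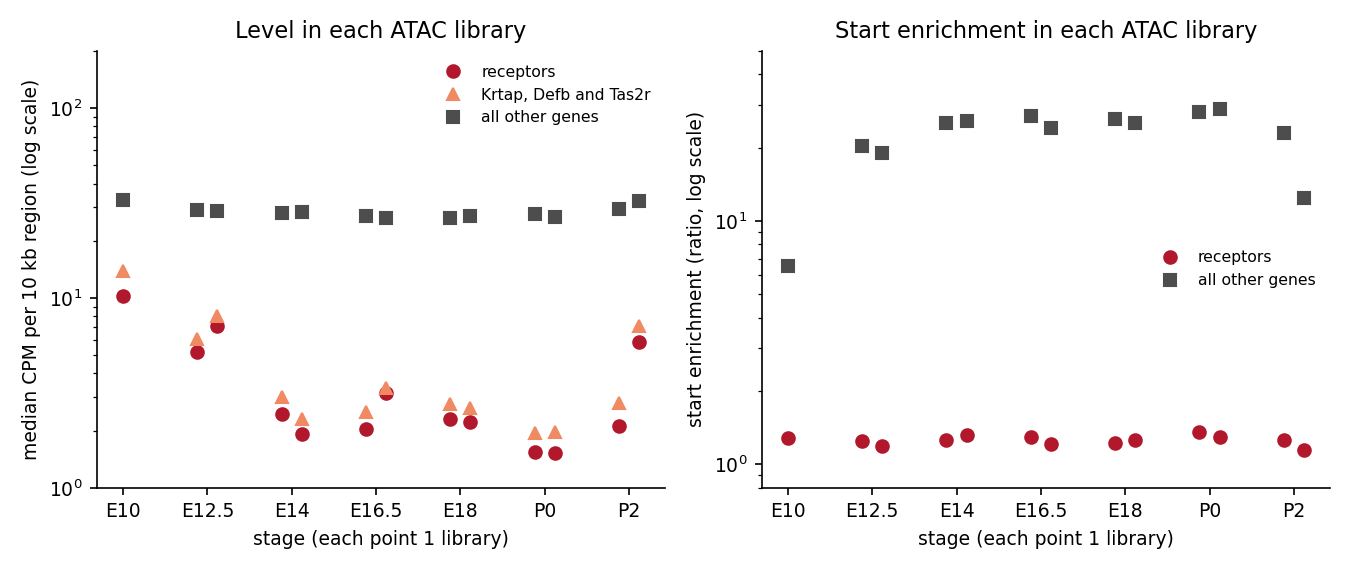
Left: median CPM per 10 kb region in each of 13 ATAC libraries by stage (log axis) for receptors, Krtap with Defb and Tas2r, and all other genes. Right: start enrichment (ratio, log axis) of receptors and all other genes. Receptors run from 1.52 to 10.2 CPM while other genes stay between 26.4 and 32.6 CPM, and receptor start enrichment stays between 1.15 and 1.35 in every library.

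A window of at least 1 CPM was found in 17 members (1.15%), against 72.1% of other genes, and in 2 of these the highest window lay within 300 bp of the start. A window of at least 2 CPM was found in 5 members (0.339%), against 65.7% of other genes. These 5 were Vmn2r29, Olfr94, Olfr1344, Olfr1286 and Olfr90, the last chosen after its values were seen.

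The start of Vmn2r29 was open in all 13 libraries. Its region at the NR_003555 start (chr7:7226000-7235999, mm9, minus strand) had 49.6 CPM at E10, 66.1 and 63.7 at E12.5, 53.0 and 53.9 at E14, 64.0 and 63.9 at E16.5, 55.3 and 59.0 at E18, 52.7 and 55.9 at P0, and 40.05 and 38.4 at P2. The mean of 55.0 CPM was the 77.1 percentile of all regions, and the central 400 bp alone held 27.3 CPM, from 285 to 2974 counts per library. The P2 libraries were the lowest and the E12.5 libraries among the highest, and the level stood 4.84 to 36.8 times over the receptor median of the same library. The second start (NM_001113468, chr7:7195039-7205038) had 0.710 CPM, with 0.0844 to 3.78 CPM and at most 8 counts in the central 400 bp. RNA under the symbol Vmn2r29, which does not separate the starts, stood between 0 and 0.101 FPKM (fragments per kilobase of transcript, scaled to library size) in the 12 RNA libraries.

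Olfr658 (chr7:111790819-111800818, minus strand) was next in the central 400 bp, with 2.99 CPM at E10, 8.87 and 11.1 at E12.5, 4.204 and 3.48 at E14, 2.82 and 3.40 at E16.5, 1.55 and 1.59 at E18, 1.41 and 0.895 at P0, and 1.41 and 1.86 at P2. Both E12.5 libraries were above all others. Vmn1r25 (chr6:57924296-57934295, minus strand) had 3.07 CPM in the central 400 bp at E10, 2.51 and 3.38 at E12.5 and 3.17 and 3.57 at E14, but 0.559 and 0.403 at E16.5, 0.145 and 0.232 at E18, 0.177 and 0.447 at P0 and 0.141 and 0.289 at P2. The 5 libraries up to E14 did not overlap the 8 later ones. Olfr455 (chr6:42484019-42494018) had 6.70 CPM in the E10 centre and 0.0442 to 0.599 CPM in the other 12 libraries. Olfr373 (chr8:74618661-74628660) reached 1.28 and 1.17 CPM in the centre at E18 and 1.19 and 0.895 at P0, from at most 111 counts.

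The other members with high levels had their highest window away from their own start. Olfr94 (chr17:37329911-37339910, minus strand) had 14.4 CPM with its top window of 3.11 CPM 700 bp after the start, and the start of Ubd, a ubiquitin-like gene, lay inside the region. Olfr1344 (chr7:6387613-6397612, plus strand) had 11.95 CPM with a top window of 2.92 CPM 4300 bp before the start. The pseudogene Vmn2r-ps11 (chr3:64643665-64653664) had 11.8 CPM with a top window of 1.87 CPM 2300 bp after it. Olfr1286 (chr2:111256106-111266105, minus strand) had 11.1 CPM with a top window of 2.33 CPM 2100 bp before it. In all, 7 members overlapped the central 400 bp of a gene that is no receptor and 1470 did not. The other 6, named for this overlap and not by level, had 0.312 CPM (Olfr56), 3.45 (Olfr1447), 3.84 (Olfr30), 5.21 (Olfr1275), 5.76 (Olfr801) and 6.46 CPM (Olfr13).

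**Figure D3:**
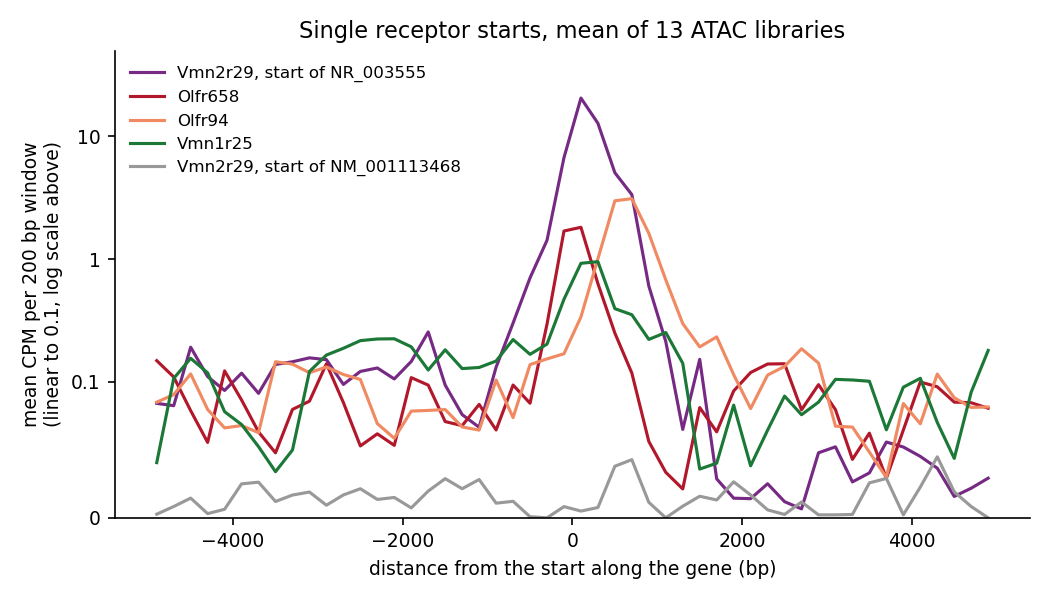
Mean CPM per 200 bp window over 13 ATAC libraries against distance from the start in bp, for both Vmn2r29 starts, Olfr658, Olfr94 and Vmn1r25; the axis is linear up to 0.1 CPM and logarithmic above. Vmn2r29 (NR_003555) peaks at 20.6 CPM 100 bp after the start, Olfr658 at 1.82 CPM and Vmn1r25 at 0.951 CPM, and Olfr94 peaks 700 bp after its start.

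At the other end, 37 members (2.51%) had 0 counts in all 13 libraries, among them Olfr1506, Vmn1r-ps79, Vmn1r100, Vmn1r104 and Vmn1r111. They comprised 28 Vmn1r (12.8%), 8 Vmn2r (6.11%) and 1 Olfr region (0.0887%), against 210 (0.778%) of other genes. A count of 0 allows up to 3 counts per library, for counting error only. Chromosome 7 held 35 of them, 28 of these between 20 and 25 Mb. Members under a symbol with several starts were at 0 in 33 of 57 cases (57.9%), and the rest in 4 of 1420 (0.282%). Near-identical copies can share reads, so values of these genes are uncertain.

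Levels also differed by chromosome. Relative to the receptor median of the same library, the median of chromosome 7 members stood at 0.706 to 0.915, below it in all 13 libraries. Chromosome 7 held 114 of 219 Vmn1r and 60 of 131 Vmn2r regions. It also held 76 of the 83 members that averaged under 10 counts a library. The part of these in its level was not tested. Members on chromosome 6 stood at 1.11 to 1.38, on chromosome 10 at 1.21 to 1.45, and on chromosome 1 at 1.26 to 1.80, above it in all 13. A Vmn2r cluster on chromosome 3 (chr3:63880564-64653664, 8 regions), chosen after its values were seen, had 7 regions above the median in at least 12 libraries. Median folds in it were 1.93 for Vmn2r1, 1.95 for Vmn2r2, 2.09 for Vmn2r3, 3.07 for Vmn2r4, 1.73 for Vmn2r6, 2.49 for Vmn2r7 and 3.99 for Vmn2r-ps11. Vmn2r5 stood at 0.426 and was below the median in all 13 libraries. Across 1440 members with counts, log levels in 2 libraries of the same stage correlated with r of 0.756 to 0.963 and in libraries of different stages with r of 0.626 to 0.934. These r values are descriptions over regions that share libraries and sequence.

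Stages were compared with edgeR's quasi-likelihood test on raw counts over all regions that passed a low-count filter (28048 regions, 1411 members), with Benjamini-Hochberg adjustment and a threshold of 0.05. P0 against E12.5 is the widest span without E10 and P2, the stages that hold the libraries of lowest start enrichment. The stages still differ in it: other genes had 28.01 and 28.8 at P0, the highest of the 13 libraries, and 20.3 and 19.0 at E12.5, the lowest after E10 and P2 replicate 2. Its part in the result was not tested. At P0 1280 members were lower than at E12.5 and 0 were higher, or 90.7% lower, where 32.0% of all regions tested were lower and 29.8% higher. No member was higher at an unadjusted p under 0.05, nor by DESeq2. The members' median log2 difference was −1.76, against 0.00 over all regions. By family, 1047 of 1124 Olfr, 144 of 172 Vmn1r and 89 of 115 Vmn2r regions were lower. Krtap, Defb and Tas2r regions were lower in 109 of 132 cases (median −1.59), so the fall was not shown to be particular to receptors. Without E12.5 replicate 2 the members' median was −1.52, and without P0 replicate 1 it was −1.79. In both fits fewer members and fewer regions of all genes were called. Scaling to library totals gave 5735 higher and 10791 lower regions of all genes in place of 8352 and 8972, moved the median of all regions to −0.22 and left 1287 members lower.

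The 5 members with the smallest p were all lower at P0. Olfr448 (chr6:42841452-42851451) had 3.27 and 3.58 CPM at P0, against 23.2 and 23.5 at E12.5 (log2 −2.56 ± 0.29 SE, adjusted p = 1.6e-11). Olfr1286 had 2.78 and 3.40 CPM at P0, against 18.0 and 21.6 at E12.5 (−2.48 ± 0.29, adjusted p = 3.7e-11). Olfr94 had 5.70 and 8.14 CPM at P0, against 28.9 and 23.8 at E12.5 (−1.74 ± 0.22, adjusted p = 4.0e-10). In each of these genes P0 and E12.5 did not overlap. The difference of Olfr94 was close to the members' median, and relative to the receptor median it stood at 3.69 and 5.35 at P0 and at 5.61 and 3.35 at E12.5, which overlap. Olfr874 had 2.83 and 2.77 CPM at P0, against 17.5 and 19.0 at E12.5 (−2.48 ± 0.35, adjusted p = 1.3e-08). Olfr538 had 4 and 2 counts at P0, or 0.177 and 0.179 CPM, against 4.42 and 5.994 CPM at E12.5 (−4.63 ± 0.70, adjusted p = 9.6e-08). Olfr538 stood at 0.114 and 0.118 of the receptor median at P0 and at 0.638 to 1.58 of it in the other 11 libraries. The open start of Vmn2r29 (NR_003555) did not pass the test, with 52.7 and 55.9 CPM at P0 and 66.1 and 63.7 CPM at E12.5 (−0.04 ± 0.14, adjusted p = 0.814).

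P2 was compared with E14 as the latest against the earliest age that also has RNA. By the same edgeR fit 107 members (7.58%) were higher at P2 and 6 lower, where 14.6% of all regions were higher and 16.3% lower. The share of members called was below the background in both directions. The median log2 difference was 0.62, against 0.03 over all regions, and 1334 of 1411 members were above 0. By family, 87 Olfr, 13 Vmn1r and 7 Vmn2r regions were higher and 4, 1 and 1 lower. The result rested on single libraries. The members' median log2 difference was −0.07 without P2 replicate 2 and 1.09 without P2 replicate 1. It was 0.80 without E14 replicate 1 and 0.46 without E14 replicate 2. Over all regions the median stayed between −0.0013 and 0.033 in these fits. Calls moved over all regions too. More members and more regions of all genes were higher without P2 replicate 1, and fewer of both in the other fits. P2 replicate 2 had a start enrichment of 12.4 at other genes, against 22.9 in P2 replicate 1. Scaling to library totals gave 5747 higher and 3894 lower regions of all genes in place of 4101 and 4570, with a median of all regions of 0.18.

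**Figure D4:**
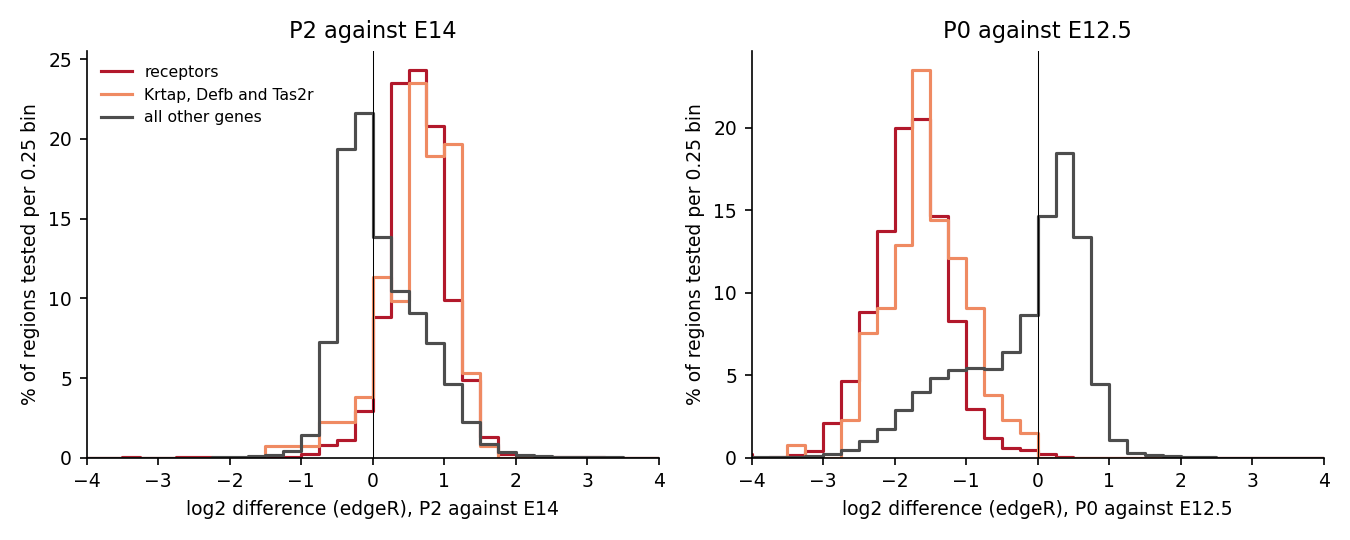
Percent of regions tested per bin of 0.25 in log2 difference, P2 against E14 and P0 against E12.5, for receptors, Krtap with Defb and Tas2r, and all other genes, which include those families. Receptors centre on −1.76 for P0 against E12.5 and on 0.62 for P2 against E14.

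Among members lower at P2, Olfr1286 had 2.62 and 7.58 CPM at P2, against 24.1 and 22.5 at E14 (−2.44 ± 0.26, adjusted p = 3.1e-12 by edgeR). Olfr448 had 5.26 and 8.19 CPM at P2, against 14.7 and 13.5 at E14 (−1.25 ± 0.26, adjusted p = 0.00013). Olfr94 had 7.09 and 13.7 CPM at P2, against 19.1 and 17.3 at E14 (−1.01 ± 0.20, adjusted p = 4.8e-05). None of these overlapped between the ages. Counted over the central 2 kb alone, Olfr1286 had a log2 difference of 0.98 (adjusted p = 0.245) and Olfr448 no longer passed (adjusted p = 0.996). Vmn1r25 had 3.18 and 9.19 CPM at P2, against 13.7 and 12.3 at E14 (−1.30 ± 0.32, adjusted p = 0.0011). Vmn2r29 (NR_003555) had 40.05 and 38.4 CPM at P2, against 53.0 and 53.9 at E14 (−0.59 ± 0.14, adjusted p = 0.00091). Relative to the receptor median, Olfr1286 stood at 1.23 and 1.29 at P2, at 9.86 and 11.7 at E14 and at 3.49 and 3.05 at E12.5. Olfr94, Olfr448 and Vmn1r25 also had their highest relative level at E14, so the E14 libraries stood above every other stage for these 4 genes, which the comparison itself had picked. The fifth gene lower at P2, Vmn2r29 (NR_003555), stood at 21.7 and 28.1 at E14 and higher at P0, at 34.1 and 36.8. Olfr658, named here after its values were seen, had 3.71 and 7.48 CPM at P2 and 7.76 and 6.27 CPM at E14 and did not pass the test (−0.53 ± 0.31, adjusted p = 0.179).

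Among members higher at P2, Olfr91 had 6.53 and 12.1 CPM at P2, against 2.27 and 2.71 at E14 (1.71 ± 0.41, adjusted p = 0.00087 by edgeR). Relative to the receptor median it stood at 3.07 and 2.07 at P2 and 3.20 and 3.18 at P0, and at 0.632 to 1.41 in all 9 earlier libraries. The other 4 named by the rule were Vmn1r187, Vmn1r63, Vmn1r62 and Vmn1r186 on chromosome 7, which form 2 overlapping pairs. They had 76, 80, 98 and 88 counts in P2 replicate 1 and 0 counts in P2 replicate 2 and both E14 libraries. Their only other counts were 132, 110, 60 and 60 at E10, the other library with 0 counts on unplaced sequence. DESeq2 called none of them, so these calls rest on 1 library.

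**Figure D5:**
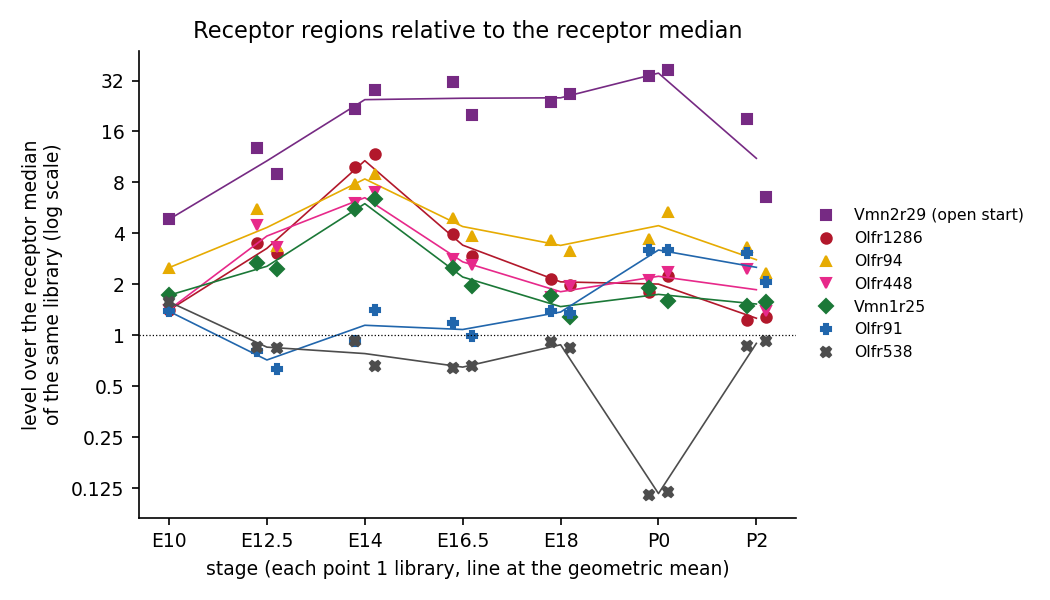
Level of 7 named regions over the receptor median of the same library (log axis), by stage; each point is 1 library and lines join geometric means. Olfr1286, Olfr94, Olfr448 and Vmn1r25 are highest at E14, Olfr91 is higher at P0 and P2 than before, Olfr538 falls to about 0.12 at P0, and Vmn2r29 is above the others in every library.

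Over the rank of the 7 stages, edgeR found 88 members (6.24%) with a falling trend and 0 with a rising one, where 4.86% of all regions fell and 5.14% rose. In this fit the share was near the background. No member rose at an unadjusted p under 0.05, nor by DESeq2, and 812 fell at an unadjusted p under 0.05, which 9920 of the 28048 regions passed in either direction. The median slope was −0.21 log2 per stage, against −0.01 over all regions. The lowest p values were those of Vmn2r44 (adjusted p = 0.00077), Olfr94 (0.0013), Olfr1286 (0.0014), Vmn2r37 (0.0027) and Olfr448 (0.0033). Vmn2r44 had 7 counts at E10, 33 and 18 at E12.5 and at most 2 in each later library. Vmn2r37 had 5 counts at E10, 4 and 9 at E12.5 and at most 2 later. Slopes were −0.30 ± 0.05 for Olfr94, −0.48 ± 0.09 for Olfr1286 and −0.38 ± 0.08 for Olfr448, against −0.04 ± 0.04 for Vmn2r29 at NR_003555 (adjusted p = 0.480). Without P2 replicate 2, 1341 of 1410 members fell, where 9812 of 28033 regions did. Without E14 replicate 2, 205 of 1411 members fell, where 1843 of 28042 regions did. In both fits the share of members was above the background. The count of falling members was 28 without E10, 19 and 12 without E12.5 replicate 1 and 2, and 51 without E16.5 replicate 2. It was 36 and 32 without E18 replicate 1 and 2, 19 and 22 without P0 replicate 1 and 2, and 23 without P2 replicate 1. In these fits 604 to 1696 regions of all genes fell, and the share of members was below the background.

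RNA of receptor genes was at or near 0. In these bulk samples fewer cells of a type and less RNA per cell cannot be told apart. Of 1438 receptor genes with RNA values, 1122 were listed at 0 in all 12 libraries (78.0%), against 16.4% of other genes. A library had 23 to 121 receptor genes above 0, and their summed level was 1.54 to 16.1 FPKM of a total of 383872 to 504845 FPKM. Among genes with high ATAC levels, Vmn1r25, Olfr1286, Olfr455 and Olfr373 were listed at 0 in all 12 libraries, Olfr94 in 11, and Olfr658 reached 0.106 FPKM. RNA was measured at E14, E18 and P2 only, not at E10 or E12.5, where the starts of Olfr455 and Olfr658 were highest. At least 1 FPKM was reached by 2 receptor genes. Vmn1r90, named after its values were seen, had 1.84 FPKM in E14 GFP- replicate 1 and at most 0.983 FPKM elsewhere. Olfr543, chosen the same way, was above 0 in all 12 libraries, with 0.0321 to 0.839 FPKM.

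Vmn2r2 was the only receptor gene that passed the filter of at least 1 FPKM in at least 2 libraries, which 52.9% of other genes passed. It had 0.254 and 3.05 FPKM in GFP+ cells at E14, against 0.0134 and 1.34 FPKM in GFP- cells, and at most 0.177 FPKM at E18 and P2. Both replicate 2 libraries of E14 were high and both replicate 1 libraries low, in either sort. By limma on log2(FPKM + 1), which understates changes of low genes, the difference of GFP+ from GFP- cells was 0.55 ± 0.53 at E14 (adjusted p = 0.562), 0.12 at E18 (0.894) and 0.02 at P2 (0.995). So 0 receptor genes were called at any age and 0 had an unadjusted p under 0.05, where limma called 0%, 3.61% and 1.49% of all genes tested at E14, E18 and P2. Without a filter on low values, 316 receptor genes and 22882 genes in all were tested. Then 6 receptor genes (1.90%) were called at E18, 1 higher and 5 lower, where 4.24% of all genes were, and 1 (0.316%) was called at P2, where 1.01% of all genes were. The E14 difference of Vmn2r2 changed sign, to −0.30, without GFP+ replicate 2, and was −0.05 without GFP- replicate 1. Its neighbours on chromosome 3 were mixed. Vmn2r7 had 0.561 FPKM in GFP+ and 0.499 in GFP- replicate 2 at E14 and at most 0.0868 elsewhere, and Vmn2r5 had 0.471 and 0.219 there and at most 0.0337 elsewhere. Vmn2r1 had 0.157 and 0.167 there and up to 0.275 elsewhere, and Vmn2r3, Vmn2r4 and Vmn2r6 were at most 0.0720 in any library. Those replicate 2 libraries also held lens RNA, with Cryaa, a lens crystallin, at 61.1 FPKM in GFP+ and 2676 FPKM in GFP- replicate 2 and 0 in both replicate 1 libraries. The part of lens RNA in the Vmn2r values was not tested. The GFP- replicate 2 library stood apart in Lhx2 too, with 97.5 FPKM, against 6.66 in GFP- replicate 1 and 141 and 111 in GFP+ cells. A fit without that library tested only 1 receptor gene, Vmn2r2, so it says nothing of the other receptor genes.

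Other genes of chemosensory signalling were split. Of 13 genes of olfactory signalling 6 were under 1 FPKM in all 12 libraries and 2 were at or above it in all, while all 4 genes of vomeronasal signalling reached it in some library. Omp, the marker of mature olfactory neurons, had 0.0307 to 0.195 FPKM, the channel subunit Cnga2 at most 0.0382, Stoml3 at most 0.0523, and the receptor transporters Rtp1 and Rtp2 at most 0.0570 and 0.0647. Gnal, the olfactory G protein, had 0.608 to 44.1 FPKM and Trpc2 0.641 to 3.69. Cngb1, a channel subunit also used by rods, had 1.81 and 0.704 FPKM in GFP+ cells at P2, against 12.9 and 51.7 in GFP- cells (log2 −3.63 ± 0.54, adjusted p = 0.021 by limma). The chloride channel Ano2 had 3.003 and 1.27 FPKM in GFP+ cells at P2, against 12.7 and 31.7 in GFP- cells (−2.81 ± 0.45, adjusted p = 0.026). No other gene of the list passed the test at any age. Of the 4 vomeronasal signalling genes Gnai2 passed it at E18, with 227 and 241 FPKM in GFP+ cells, against 84.0 and 95.2 in GFP- cells (1.38 ± 0.28, adjusted p = 0.040).

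Many regulators of receptor choice and silencing had RNA in these cells. All 10 silencing and nuclear architecture genes had at least 1 FPKM in all 12 libraries, as did 6 of 9 receptor choice genes, and limma called none of either list. Lhx2, which also specifies retina, had 111 to 189 FPKM in GFP+ cells, Lbr, the lamin B receptor that tethers heterochromatin, 73.1 to 146, and the corepressor Trim28 253 to 446. Other choice genes were low in GFP+ cells: Ebf1 had 0.397 to 1.96 FPKM, Ebf2 0.108 to 1.13 and Emx2, a homeodomain factor, at most 0.0901. Their regions had high levels over 10 kb: the median was 74.2 CPM for receptor choice genes and 67.9 CPM for silencing genes. For each gene the region with the highest mean was taken, and no start enrichment was computed. Setdb1 alone in these lists, at 17.9 CPM, lay below the median of 28.8 CPM for other genes. By edgeR 8 of the 9 choice regions were higher at P0 than at E12.5, against 29.8% of all regions, and 0 lower, and 7 of 10 silencing regions were higher and 0 lower. The open starts of Rpl and Rps genes were higher in 77 of 114 cases and lower in 10 in the same comparison. At P2 against E14, 0 of the 9 choice regions passed in either direction and 4 of the 10 silencing regions were lower, where 14.6% of all regions were higher and 16.3% lower. The 12 olfactory signalling regions with counts had a median of 15.0 CPM. Of these 1 was higher and 7 lower at P0 than at E12.5, where 29.8% of all regions were higher and 32.0% lower. At P2 against E14, 4 were higher and 1 lower. The 4 vomeronasal signalling regions had a median of 80.8 CPM, with 2 higher and 0 lower at P0 and 0 called at P2.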

How the data were processed

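ATAC-seq was read from 13 libraries of GFP+ cells and RNA-seq from 12 libraries of GFP+ and GFP- cells. The deposited ATAC tables hold whole-number, unscaled counts per 200 bp window and over the exons of each gene. Their coordinates were taken as mm9, which the submitters' processing notes name, since receptor starts lie elsewhere in GRCm38 and unplaced sequence carries mm9-style names; the headers name no build. The deposited RNA table does not name its unit. Its values were taken as FPKM from their distribution, and the authors' step to FPKM is not given in the sources used here. The submitters' processing notes name Bowtie2, HISAT2, featureCounts 1.5.3, SAMtools 1.5, Picard 2.10.7 and bedtools 2.26.0, with no role for each, beside 2 builds, mm9 and mm10.

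Windows were sorted by position and summed over runs of 50, which left 48 of 1424448 windows outside a run. Region totals, between 11179094 and 94686369 counts, set the precision of each library. CPM levels used the region total, and tests used TMM scaling. Stages were tested with edgeR 4.0.16 (quasi-likelihood, 7 stage groups with 6 residual degrees of freedom, or a slope on stage rank with 11) in R 4.3.3, with DESeq2 1.42.0 as an alternative. RNA was tested with limma 3.58.1 on log2(FPKM + 1) over 6 groups. Both scripts were tested on simulated data. Figures and sums used Python 3.11.15 with pandas 2.3.3, numpy 2.4.6 and matplotlib 3.10.9. Promoter sequences are from RefSeq on GRCm38.p6, and no coordinate was converted between builds.

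Members and gene lists were chosen with earlier results of these data known. Named genes were the 5 members with the highest and the 5 with the lowest mean level, the 5 with the highest central 400 bp, up to 5 each way with the smallest p per contrast, receptor genes that passed the RNA filter, and genes of the fixed lists. Other genes are named as chosen after their values were seen, or for overlapping the start of another gene. Alternatives tried were other scalings, DESeq2, no filter, the central 2 kb, other centre and flank widths, 1 region per symbol, another pseudocount, a replicate term and leaving out libraries. No receptor on unplaced sequence entered a comparison.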

Additional observations from a re-analysis of the deposited data

Results flagged for a closer look

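Counts appeared in receptor runs that no comparison used. Of the 5 receptor runs on unplaced sequence, Vmn2r123 had up to 87 counts in a library: 0 at E10, 83 and 87 at E12.5, 54 and 51 at E14, 30 and 21 at E16.5, 41 and 66 at E18, 10 and 5 at P0, and 0 and 61 at P2. The libraries at 0 were E10 and P2 replicate 1, which had 0 counts in all 154 regions on unplaced sequence. The run of Vmn1r187 on unplaced sequence of chromosome 7 had at most 4 counts in a library. The placed copy of Vmn1r187 had 132 counts at E10, 76 in P2 replicate 1 and 0 in the other 11 libraries. The part of the alignment in these values was not tested.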

How the results depend on the processing

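Of 471 values recomputed under an alternative, 418 were unchanged by the rule for their kind, 38 moved, 10 lost their call and 5 changed sign. Named genes were judged by sign and call and not by size, and counts of members by a 1.5-fold limit. Counts that stayed at 0 are among the unchanged values. Vmn1r25 was unchanged by this rule although its log2 difference of P2 from E14 ran from −2.50 to −0.79. Members higher at P2 than at E14 (107) were 175 by DESeq2, 69 over the central 2 kb, 1118 without E10 and P2 replicate 1, 19 without E10 and P2 replicate 2 (chosen after seeing the data), and 8 to 1100 with any single library left out. The median log2 difference was −0.079 without E10 and P2 replicate 2, −0.070 without P2 replicate 2, and up to 1.09 without P2 replicate 1, with or without E10. Members lower at P0 than at E12.5 (1280) were 761 over the central 2 kb and 758 to 1360 with 1 or 2 libraries left out. Members with a falling trend (88) were 40 without TMM and 189 by DESeq2, where 1194 and 1933 of all regions fell. They were 17 without E10 and P2 replicate 1, where 1214 of all regions fell. Without E10 and P2 replicate 2 (chosen after seeing the data) they were 1089, where 6681 fell. With a library left out they were 12 to 1341, where 604 to 9812 fell. Olfr1286 had a log2 difference of 0.98 between P2 and E14 over the central 2 kb. Vmn2r2 RNA at E14 ran from −0.30 to 1.40 with a library left out, and was −0.05 without GFP- replicate 1. Without a filter, receptor genes called in RNA were 6 at E18 (1.90%, against 4.24% of all genes) and 1 at P2 (0.316%, against 1.01%). At 0.1 FPKM in 2 libraries, a filter chosen after seeing the data, 3 of 35 receptor genes were called at E18. All were lower in GFP+ cells, and their share was 8.57%, against 4.51% of all genes. The mean start enrichment (1.26) was 1.20 over the central 1000 bp, 1.08 with 1 region for each symbol and 1.08 without the open Vmn2r29 start. The causes were not tested. In ATAC, differences of replicate 1 from replicate 2 correlated between stages at −0.38 to 0.43 (median −0.02). The correlation was over 0.1 in 4 of 15 stage pairs. Replicate numbers thus showed no common pairing over the stages, but pairing within some stages cannot be told from these values. In RNA, GFP+ and GFP- deviations correlated at 0.36 at E14, 0.11 at E18 and −0.56 at P2. So RNA libraries of the same replicate number deviated together at E14 but not at P2, and the main RNA test had no replicate term. With a replicate block 101 members were higher and 7 lower at P2, 1286 were lower at P0 and 59 fell over the stages, and no receptor gene was called in RNA. At 17 to 210 median counts per member, depth limits single regions more than the family medians.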

Other observations

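Counts over annotated exons gave another measure of the same genes. The 1452 receptor genes in the exon table had a median exon length of 948 bp and held 0.141% to 0.787% of exon counts per library. Their density on exons, relative to that over 10 kb regions, was 0.969 and 0.927 at E14 and 0.551 to 0.649 in the other 11 libraries. Exon totals of all genes were high at E14 too. E14 replicate 1 had 12819904 exon counts beside 67796600 region counts, against 8980327 and 71089052 in P2 replicate 1. E14 replicate 2 had 15915391 and 84492228, against 12203122 and 94686369 in E18 replicate 2. The difference at E14 was therefore not shown to be particular to receptors. The cause was not tested. Receptors on chromosome 16 stood at 1.06 to 1.65 and those on chromosome 3 at 1.52 to 2.68 times the receptor median of the same library, while those on chromosome 11 stood at 0.560 to 1.31.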
